A study of Sus scrofa with 2 samples.

Results

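The ribosomal protein genes of pig thymocytes were taken as the rows of both count matrices whose symbol in the deposited gene list was RPL or RPS followed by a digit, RPLP followed by a digit, or RPSA. Of 21301 rows, 69 matched. The 10 rows of the RPS6K kinases, which phosphorylate or signal to the ribosome and are not part of it, were left out, and 59 rows remained. They comprised 35 rows with names of the large subunit and 24 with names of the small subunit. Of these, 57 reached 100 unique molecular identifiers (UMIs, each counting 1 captured transcript) in the kept cells. RPL3L, a paralog of RPL3 known from striated muscle, had 18 UMIs. RPL10L, a retrogene of RPL10 known from the testis of other mammals, had 2 UMIs among iNKT thymocytes and 0 among total thymocytes, where 0 allows up to 0.105 CPM (3 counts). Ribosomal proteins whose rows carry no symbol in the gene list are not members. RPL17-C18orf32 and RPL36A-HNRNPH2 are readthrough names. Ribosomal protein genes have many processed copies in mammalian genomes, so the counting may have divided the reads of any member among near-identical copies, and levels of single members are uncertain to that extent.

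Single-cell RNA sequencing with droplets and 3′ counting was run on thymocytes from 2 untreated pigs of mixed breed, 22 weeks of age. Invariant natural killer T (iNKT) thymocytes, T lymphocytes whose receptors see lipids on CD1D, were enriched from these thymi on magnetic beads, and live cells were sorted by flow cytometry. Total thymocytes came from the same thymi, and no bead step is described for them. Cells of both pigs were combined, which gave 1 library of iNKT thymocytes and 1 of total thymocytes. With 1 library of each kind no test across replicates was possible, and all intervals cover counting error only. The bead step and the cell kind cannot be told apart in any value that sets iNKT against total thymocytes.

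Ribosomes are built in the nucleolus from ribosomal RNA and a fixed set of ribosomal proteins, and they translate messenger RNA in the cytoplasm. Messenger RNAs of ribosomal proteins begin with a stretch of pyrimidines through which growth signals of the mTOR pathway control their translation, and MYC raises the production of ribosomes. In the thymus, double-positive thymocytes, which carry CD4 and CD8, are mostly small resting cells, whereas the blasts before them divide, and mature single-positive cells prepare to leave the organ.

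After filtering, 11273 iNKT thymocytes with a median of 4210 UMIs and 8026 total thymocytes with a median of 2414.5 UMIs were kept, and 30 kept barcodes occurred in both libraries. The doublet caller marked 1 and 0 cells, far under the expected rate of 0.08 that was set. No doublets were removed, so those present remain. Each library was clustered without the ribosomal protein rows, into 11 iNKT and 14 total thymocyte clusters. Clusters were named from marker genes where these led the cluster, and otherwise are given by number. ZBTB16, the transcription factor of iNKT cells, ranged from 94.9 to 277 counts per 1000000 UMIs (CPM) in the iNKT clusters and from 0 to 11.1 CPM in the total thymocyte clusters. CD8B was at or below 10.8 CPM in the iNKT clusters, and reached 1927 and 1335 CPM in double-positive-like clusters 6 and 5 of total thymocytes. CCR7 was at 499 CPM in cluster 2, the cluster named naive mature T-like, whose leading genes also held the granzyme gene GZMH and the interferon-stimulated genes ISG15 and IFITM3.

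Together the 59 rows held 22.10% of all UMIs in the iNKT library (22.09 to 22.11) and 20.24% in the total thymocyte library (20.23 to 20.26). Each UMI is 1 transcript whatever its length, so levels in CPM are not divided by length, although capture and mapping differ between genes. The 5 most abundant members over both libraries were RPS27 at 9427 CPM, RPL10 at 9392 CPM, RPL37 at 8778 CPM, RPS12 at 7748 CPM and RPL11 at 6827 CPM. These 5 held 19.7% of the ribosomal protein UMIs, and 18 members held 50% of them. At the low end, beside RPL3L and RPL10L, stood the paralogs RPL26L1 at 137 CPM, RPL7L1 at 153 CPM and RPS27L at 289 CPM. The parent genes of these paralogs were far higher, with RPL26 at 4358 CPM and RPL7 at 3508 CPM. RPL4, a protein that lines the exit tunnel, was also low, at 428 CPM.

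Over the stages of total thymocytes the share of ribosomal protein UMIs had its lowest value in the larger double-positive-like cluster and high values in naive mature T-like cells and in cluster 9. It stood at 19.7% (19.6 to 19.7) in early and pre-TCR-like cluster 3, whose leading genes include PTCRA, which encodes the pre-TCR alpha chain. Cluster 9, led by HBB, PCLAF, TK1 and PCNA and richest of the total thymocyte clusters in S-phase transcripts, had 23.96%. Cycling-like cluster 10, led by UBE2C, TOP2A and CDC20, had 18.5%. The double-positive-like clusters differed from each other, with 21.5% in cluster 5 and 14.96% in cluster 6, which holds 1832 cells. Post-selection-like cluster 1 had 17.4% and naive mature T-like cluster 2 had 22.9%. Cluster 0, led by TOX2, ID2 and CCR4, had 22.2%. Gamma-delta T-like cluster 8 had 19.9% and cytotoxic T or NK-like cluster 13 had 21.7%. The clusters named so far therefore ran from 14.96% to 23.96%, a spread far wider than any counting interval, and the remaining clusters 4, 7, 11 and 12 lay within that range at 16.7% to 21.1%.

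In single cells the distributions overlapped. The median cell had 14.4% in double-positive-like cluster 6 (quartiles 12.4 and 16.5), 20.2% in double-positive-like cluster 5 (17.3 and 22.9) and 22.6% in naive mature T-like cells (20.04 and 25.2). In UMIs, the median cell held 161 ribosomal protein UMIs in cluster 6, 749 in naive mature T-like cells and 1373.5 in cycling-like cells, whose median totals were 1127, 3241 and 8122 UMIs. Depth moved with the share: in 23 of 25 clusters the deepest tertile of cells had a higher median share than the shallowest, for example 16.2% against 13.3% in cluster 6. Among cells of 2000 to 4000 UMIs the median was 22.8% in naive mature T-like cells (588 cells), against 16.3% in double-positive-like cluster 6 (171 cells) and 23.3% in double-positive-like cluster 5 (272 cells). At matched depth, then, cluster 6 stood below naive mature T-like cells and cluster 5 did not.

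Clusters 9, 4 and 11 also carried markers of other cell types. The 3 erythroid markers summed to 4478 CPM in cluster 9 and 249 CPM in cluster 1, and to at most 21.3 CPM in the other clusters, while CD3E in cluster 9 was at 595 CPM. Myeloid markers summed to 821 CPM in cluster 4, mostly from S100A12 at 446 CPM and S100A8 at 259 CPM, and LYZ was not found there. Cluster 4 also held thymocyte and division transcripts, with PTCRA at 715, DNTT at 375, CD3E at 628 and TOP2A at 641 CPM. Plasma cell markers summed to 6935 CPM in cluster 11, where CD3E was at 176 CPM. In cluster 9 of the iNKT library they summed to 2379 CPM, and CD3E was at 1005 CPM. The part of such cells or transcripts in the shares of these clusters was not tested.

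**Figure D1:**
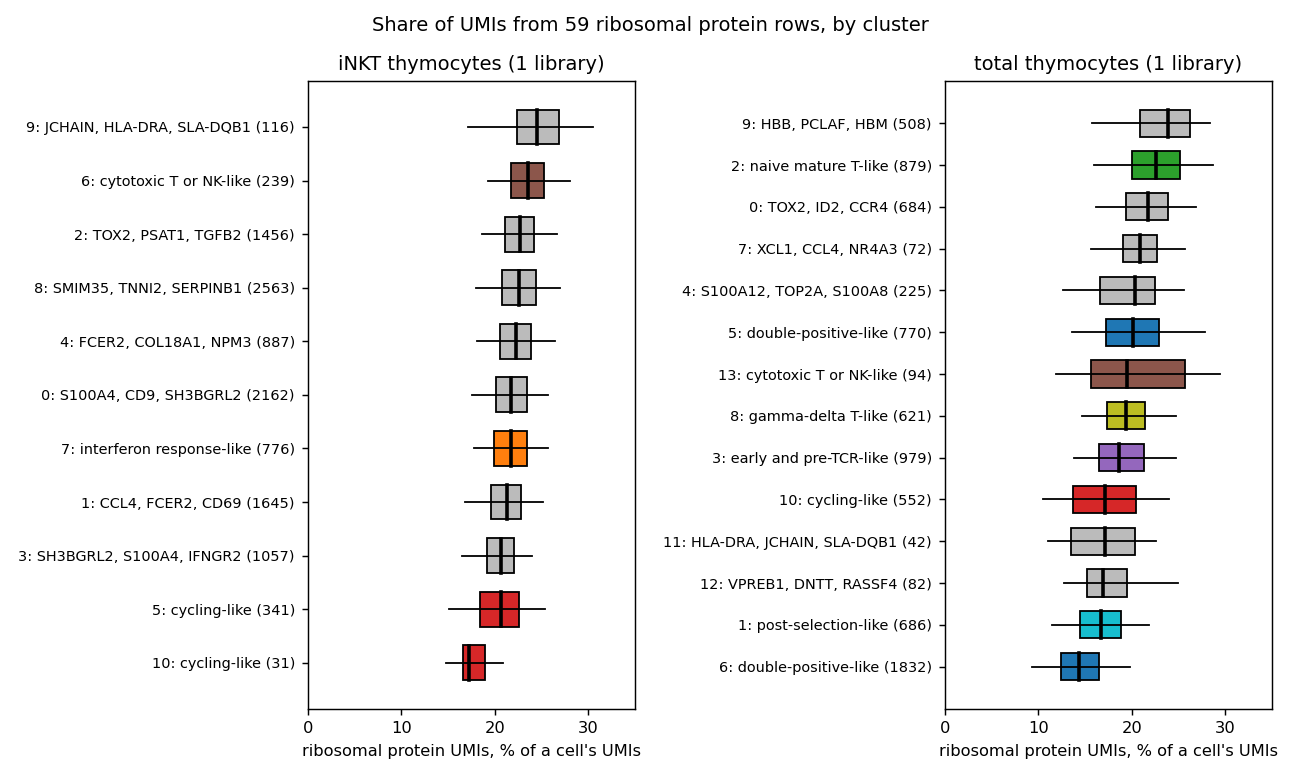
Share of each cell's UMIs that came from the 59 ribosomal protein rows, by cluster, in iNKT (left) and total thymocytes (right). Boxes span the quartiles over cells, the thick line is the median, the thin line runs between the 5th and 95th percentiles, and cell numbers stand in brackets; the medians of iNKT clusters lie between 17.3% and 24.5%, those of total thymocyte clusters between 14.4% and 23.9%.

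The iNKT clusters were closer to one another. The lowest shares were those of the cycling-like clusters, with 18.1% in the 31 cells of cluster 10 and 20.5% in cluster 5. The highest were 23.8% in cytotoxic T or NK-like cluster 6 and 24.5% in cluster 9. Leading genes of cluster 9 included JCHAIN, HLA-DRA and CD79B, markers of B and plasma cells, but also XCL1, GZMH and CXCR6. CD3E was at 1005 CPM and ZBTB16 at 132 CPM in cluster 9, so it also carried transcripts of T and iNKT cells. Interferon response-like cluster 7 had 22.00%. The other 6 clusters, which hold most of the cells, lay between 20.9% and 22.9%. Cluster 3, with the lowest share of these, had a median of 6645 UMIs per cell, so the cells with the most UMIs among non-cycling clusters had the lowest share, while within cluster 3 the deepest tertile stood at 21.6% and the shallowest at 19.4%.

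Set against the total thymocyte library, the iNKT library had 1.09 times the share of ribosomal protein UMIs (exact interval 1.091 to 1.093). None of 57 members was 2-fold higher and none 2-fold lower in iNKT thymocytes, where 11.0% of 10436 genes with at least 100 UMIs were 2-fold higher and 17.5% 2-fold lower. The median log2 ratio of the members was 0.06, that of all genes −0.24, and 37 of 57 members lay above 0. Among cells of 2000 to 4000 UMIs in each library the ratio of shares was 1.02. This range held 2603 of the 8026 total thymocytes, but 171 of the 1832 cells of double-positive-like cluster 6, where the share was lowest.

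The member with the highest ratio was RPL10, a large-subunit protein that joins late in assembly, at 10695 CPM in iNKT and 6963 CPM in total thymocytes, or 1.54 (95% interval 1.53 to 1.54) times as much. RPL23, a large-subunit protein known in human cells to bind MDM2, had 5328 CPM in iNKT and 3775 CPM in total thymocytes, with a ratio of 1.41 (1.401 to 1.42). RPS27 had a ratio of 1.36 (1.35 to 1.36). The lowest ratios were those of RPS27L, at 244 CPM in iNKT and 373 CPM in total thymocytes with a ratio of 0.654 (0.637 to 0.671), and of RPL4 with 0.674 (0.6602 to 0.689). RPS27 and its paralog RPS27L, a target of p53 in human cells, thus stood at opposite ends. RPLP0, the stalk protein on which the acidic proteins sit, had a ratio of 1.32 (1.31 to 1.33), and RPLP2, an acidic protein of the stalk, a ratio of 0.9098 (0.903 to 0.917). RPSA, a small-subunit protein also known as the laminin receptor, had a ratio of 1.27 (1.27 to 1.28). RPL5 and RPL11, which with a small ribosomal RNA form a particle that binds MDM2, had ratios of 0.868 and 0.941, and RPS6, the substrate of the S6 kinases, 1.07. RPL7 and RPL26 had 0.934 and 0.986, and their paralogs RPL7L1 and RPL26L1 0.8698 and 0.892.

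RPL10 was also the 1 member whose level in every iNKT cluster lay above its level in every total thymocyte cluster, among the 10 and 13 clusters with at least 50 cells. It ran from 8826 CPM (cycling-like cluster 5) to 12230.4 CPM (cluster 9) in iNKT clusters. In total thymocyte clusters it ran from 4675 CPM (double-positive-like cluster 6) to 8618 CPM (cluster 0). Cycling-like iNKT cluster 10, left out with under 50 cells, had 8193 CPM, which is below cluster 0 of total thymocytes. Of all 10436 genes, 1.58% had every iNKT cluster above every total thymocyte cluster and 1.40% every iNKT cluster below, so 1 and 0 of 57 members are shares near this background. RPL38, whose loss in mice alters the translation of Hox transcripts, came close to the opposite pattern, with 3314 to 4418 CPM in iNKT clusters and 3968 to 6379 CPM in total thymocyte clusters. Cycling-like cluster 10 was the 1 total thymocyte cluster within the iNKT range. Clusters of 1 library share its preparation and are not replicates.

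Closer in stage, the iNKT cells outside cycling-like clusters and cluster 9 had 22.2% and the naive mature T-like cells of the total thymocyte library 22.9%, a ratio of 0.971 (0.969 to 0.973). The direction of this difference depended on the processing. The ratio was 1.15 with TMM factors. It was 1.01 when the cells with the highest doublet scores were removed and the rest clustered anew. No member was 2-fold higher or 2-fold lower, against 7.30% and 7.45% of 9450 genes. The median log2 ratio was −0.02 for the members and −0.15 for all genes. The iNKT cells are the same as in the comparison of libraries, and RPL10 again had the highest ratio, with 10802 CPM in iNKT cells and 7949 CPM in naive mature T-like cells, or 1.36 (1.34 to 1.38). RPLP0 followed with 1.28 (1.26 to 1.304) and RPS6 with 1.19 (1.16 to 1.22). The lowest were RPL5, at 3377 CPM in iNKT and 4708 CPM in naive mature T-like cells with a ratio of 0.717 (0.705 to 0.7297), RPL4 with 0.725 (0.688 to 0.765) and RPL38 with 0.769 (0.756 to 0.781). RPL22, whose loss in mice blocks development of alpha-beta T cells, stood at 3943 and 4730.4 CPM, a ratio of 0.833 (0.819 to 0.848). RPSA, RPLP2 and RPL11 had 1.17, 0.974 and 0.899. RPS27L was not low here, with a ratio of 1.14 (1.05 to 1.24).

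Naive mature T-like cells had a share of 22.9% and double-positive-like cells 17.5%, a difference of 5.35 percentage points and a ratio of 1.31 (1.301 to 1.31). Of 57 members, 51 had a log2 ratio above 0. Their median was 0.35, and that of all genes −0.19. Past 2-fold higher were 2 of 57 members, RPS2 and RPL3, while 8.63% of 6393 genes were 2-fold higher, and 0 members were 2-fold lower against 11.1% of genes. RPS2, a small-subunit protein near the entry of the mRNA channel, stood at 5048 CPM in naive mature T-like cells and 1598 CPM in double-positive-like cells, a ratio of 3.16 (3.07 to 3.25). RPS2 was the 1 member whose log2 ratio lay 1 or more from the median of the members. RPL3, a protein close to the peptidyl transferase centre, stood at 2153 and 1016 CPM, a ratio of 2.12 (2.04 to 2.21). RPS15 followed with 1.89 (1.85 to 1.93), and RPL23 and RPL22 had 1.87 and 1.700. The lowest ratios belonged to RPS27L with 0.696 (0.631 to 0.767), RPL26L1 with 0.785 (0.688 to 0.895) and RPL36AL, the autosomal paralog of RPL36A in humans, with 0.8398 (0.802 to 0.879). RPL5, RPL11 and RPLP2 were at 1.27, 0.958 and 0.969, and RPLP0, RPSA and RPS6 at 1.41, 1.38 and 1.603.

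This difference was larger against double-positive-like cluster 6 than against cluster 5. Against that cluster alone the share ratio was 1.53, and 7 of 57 members were 2-fold higher where 8.19% of 5848 genes were. Against cluster 5 alone the share ratio was 1.06, with 1 member 2-fold higher where 11.8% of 5086 genes were. Against both clusters together, among cells of 2000 to 4000 UMIs, the share ratio was 1.097. That range changed the mix of the 2 clusters. Cluster 5 gave 272 of the 443 double-positive-like cells in it, and 770 of all 2602. Cluster 5 itself had 1.44 times the share of cluster 6, with 55 of 57 members higher. RPS20, at 4754 CPM in cluster 5 and 2185 CPM in cluster 6, and RPLP0, at 4482 and 2230.0 CPM, were 2-fold higher in cluster 5, where 0.190% of 4728 genes were, and 0 were 2-fold lower, where 3.96% of genes were. RPL23 and RPL26L1 were the 2 members that were not higher in cluster 5, with ratios of 0.964 (0.9303 to 0.998) and 0.957 (0.807 to 1.13). The comparison of these clusters was made after their shares had been seen. Cluster 5 had a median of 1785.5 and cluster 6 of 1127 UMIs per cell, and their median mitochondrial shares were 6.93% and 6.196%.

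Among the 5 comparisons of groups, cycling-like over double-positive-like cells of total thymocytes had the widest spread of members. The standard deviation of the members' log2 ratios was 0.47, against 0.19 to 0.36 in the other 4. Cycling-like cells had a summed share of 18.5%, against 17.5% in double-positive-like cells. The ratio was 1.06 (1.05 to 1.06), and it became 0.859 against double-positive-like cluster 5 alone. The median log2 ratio was 0.09 for the members and −0.23 for all genes. Of 57 members 3 were 2-fold higher, a share under the 12.6% of 6894 genes, and 1 was 2-fold lower, against 18.2% of genes. The 3 were RPS2 at 4577 CPM in cycling-like and 1598 CPM in double-positive-like cells with a ratio of 2.86 (2.79 to 2.95), RPS6 at 3344 and 1499 CPM with 2.23 (2.17 to 2.298) and RPL3 at 2127 and 1016 CPM with 2.09 (2.02 to 2.17). Both comparisons with double-positive-like cells share those cells, so their ratios are not independent. RPL36AL was 2-fold lower, at 583 and 1202 CPM, a ratio of 0.485 (0.464 to 0.508). RPS2, RPS6 and RPL36AL were 1 or more from the members' median on the log2 scale. RPL23 and RPS27 had the next lowest ratios, 0.563 (0.548 to 0.577) and 0.588 (0.579 to 0.597). RPL4 was at 1.81. RPL5 and RPL11 lay below 1, at 0.876 and 0.799, and RPLP0, RPLP2 and RPSA were at 1.35, 1.07 and 1.16. RPS27L was at 1.39, set against 0.588 for its parent RPS27. Over the alternatives tried, the ratio of RPS2 ran from 2.01 to 3.91, that of RPS6 from 1.56 to 3.07, that of RPL3 from 1.73 to 2.56 and that of RPL36AL from 0.461 to 0.594. The number of members 2-fold higher ran from 1 to 7.

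**Figure D2:**
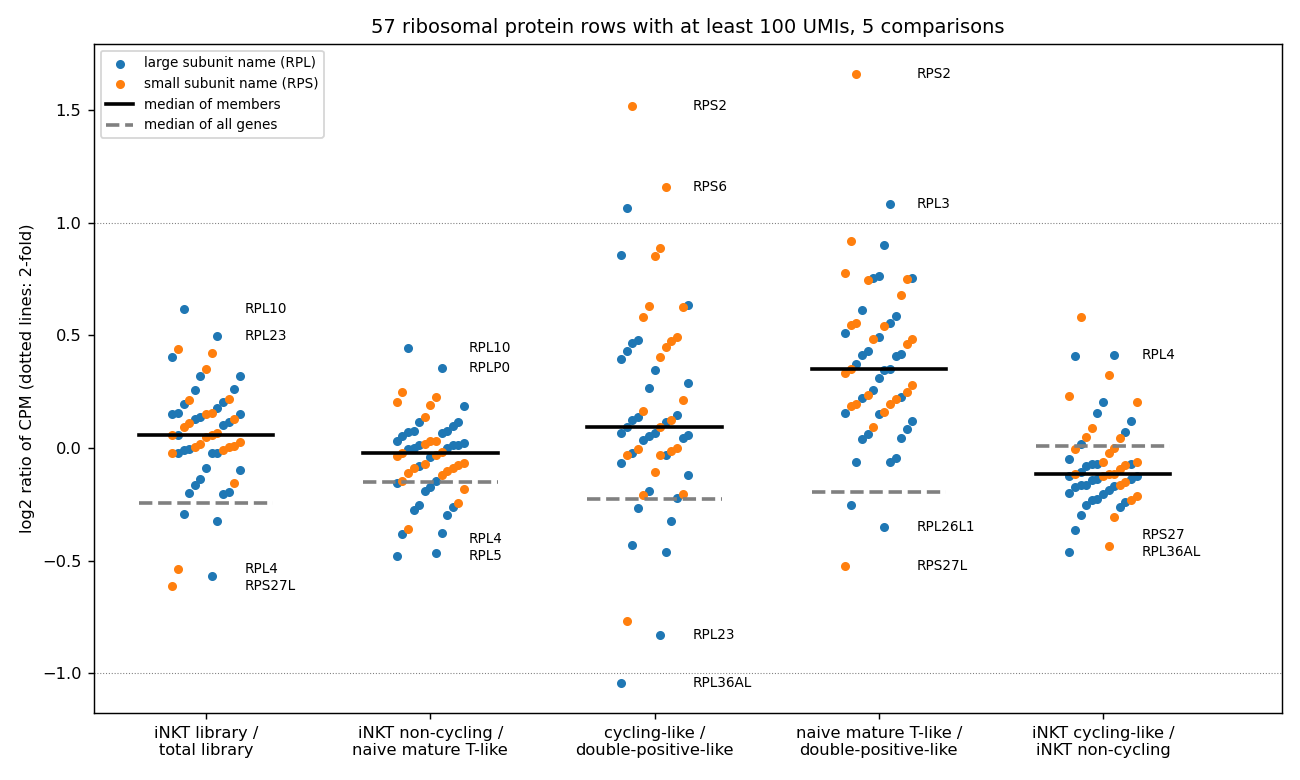
Log2 ratio of CPM for each of the 57 ribosomal protein rows with at least 100 UMIs in the 5 comparisons, 1 point per gene, with genes among the 2 highest and 2 lowest named. Black bars give the median of the members and dashed bars the median of all genes; RPS2 stands highest in both comparisons with double-positive-like cells, at ratios of 2.86 and 3.16.

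Within the iNKT library, the 372 cycling-like cells of clusters 5 and 10 had 20.3% and the non-cycling cells outside cluster 9 22.2%, a ratio of 0.915 (0.913 to 0.918). The median log2 ratio of the members was −0.12, that of all genes 0.01, and 14 of 57 members lay above 0. No member was past 2-fold, against 6.03% of 9473 genes higher and 2.52% lower. High ratios were those of RPL4, at 479 CPM in cycling-like and 359.6 CPM in non-cycling cells with 1.33 (1.26 to 1.403), and of RPL7L1, a paralog of RPL7 that acts in assembly of the large subunit, with 1.32 (1.22 to 1.44). RPL36AL at 740.4 and 1019 CPM had the lowest, 0.727 (0.697 to 0.758), followed by RPS27 with 0.739 (0.729 to 0.748) and RPL34 with 0.778 (0.765 to 0.791). RPL4 and RPL7L1 were thus above 1 and RPL36AL and RPS27 below 1 in the cycling-like cells of both libraries, set in total thymocytes against double-positive-like cells. RPLP0, RPLP2, RPSA, RPS6, RPL5 and RPL11 had ratios of 0.953, 0.953, 0.958, 1.17, 0.8904 and 0.852. RPS2 was at 1.06, and the level in non-cycling iNKT cells of 5822 CPM was above the 4577 CPM of cycling-like total thymocytes.

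Clusters mix phases of the cell cycle, so cells with at least 3 UMIs of S, G2 and M genes per 1000 UMIs were also ordered by their UMIs of G2 and M genes, a grouping made after the shares of the clusters had been seen. In both libraries the ribosomal protein share was lower the more G2 and M transcripts a dividing cell held. In iNKT thymocytes it was 21.2% with under 1 such UMI per 1000 (151 cells), 18.8% with 1 to 5 (80 cells) and 16.1% with 5 or more (41 cells). In total thymocytes it was 23.2% (528 cells), 22.1% (481 cells) and 17.7% (573 cells). Cells that were not dividing had 22.2% in the iNKT and 19.9% in the total thymocyte library. In these summed shares, dividing cells poor in G2 and M transcripts stood below the non-dividing cells of the iNKT library and above those of the total thymocyte library. In total thymocytes these 2 groups differed in depth, with medians of 5972.5 and 2063.5 UMIs. Among total thymocytes of 2000 to 4000 UMIs their median shares were nearly level, at 21.1% (41 cells) and 20.9% (2494 cells).

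**Figure D3:**
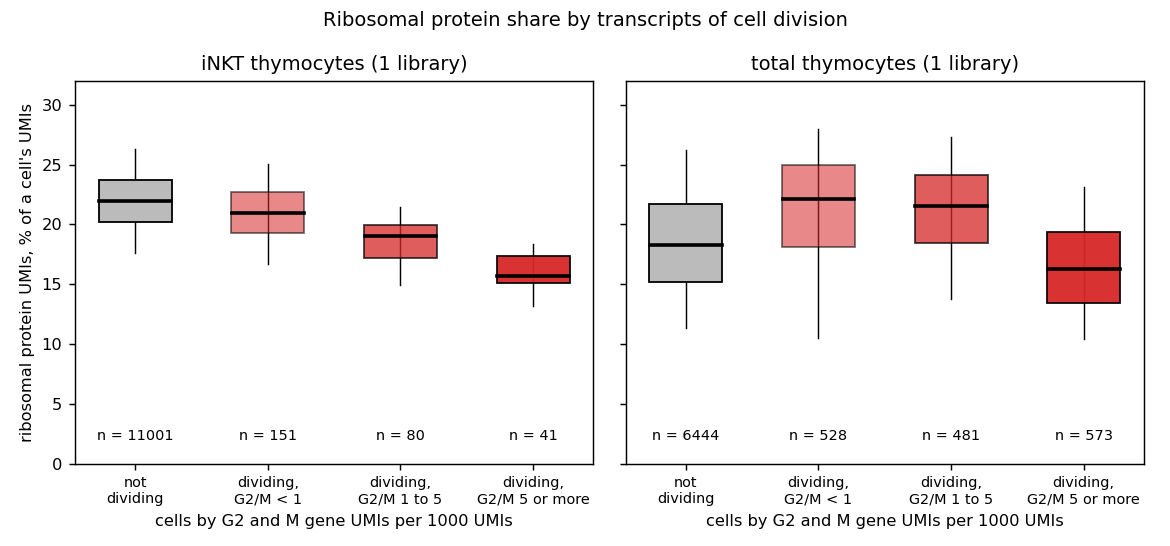
Share of each cell's UMIs from the 59 ribosomal protein rows in non-dividing cells and in dividing cells by their UMIs of G2 and M genes per 1000, in iNKT (left) and total thymocytes (right). Boxes span the quartiles over cells, thick lines are medians and thin lines the 5th to 95th percentiles; the medians with 5 or more such UMIs are 15.7% and 16.3%.

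The ratio of dividing cells with 5 or more to those with under 1 G2 and M UMI per 1000 was 0.757 (0.7501 to 0.764) in iNKT and 0.762 (0.7596 to 0.764) in total thymocytes. Of 57 members, 56 were lower in the G2 and M rich cells of each library, and the same 56 were lower in both. The medians of their log2 ratios were −0.37 and −0.39, and those of all genes 0.06 and 0.07. None of the members was 2-fold lower in iNKT thymocytes and 1 in total thymocytes, where 3.17% of 2115 and 3.23% of 6560 genes were, and none was 2-fold higher, against 5.06% and 5.99% of genes. RPL23 had the lowest ratio in both libraries, with 2553 CPM in G2 and M rich and 4984 CPM in G2 and M poor iNKT cells, a ratio of 0.512 (0.478 to 0.548), and with 1776 and 3609 CPM in those groups of total thymocytes, or 0.492 (0.479 to 0.506). RPS2 had 0.629 (0.595 to 0.664) in iNKT and 0.6399 (0.628 to 0.652) in total thymocytes, RPSA 0.602 (0.562 to 0.644) and 0.681 (0.665 to 0.697), and RPL7A 0.643 (0.605 to 0.683) and 0.656 (0.643 to 0.668). RPL26L1 was the member above 1 in both, at 1.205 (0.887 to 1.62) and 1.11 (0.998 to 1.25), intervals that both include 1. Depth was not lower in the G2 and M rich cells, whose medians were 9321 UMIs in iNKT and 7504 UMIs in total thymocytes, against 7459 and 5972.5 UMIs in the G2 and M poor cells. Cluster 9, with its erythroid transcripts, held 237 of the 528 G2 and M poor total thymocytes, and without it the ratio was 0.836.

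Across the 23 clusters with at least 50 cells, most members went with the rest of the family. The Spearman correlation of a member's CPM with the summed CPM of the other members had a median of 0.61 over 57 members, and 36 exceeded 0.5. The points share libraries and depth, so these are descriptions. RPS15A followed the rest most closely, at 0.96. Within a library the median was 0.72 over 10 iNKT clusters and 0.69 over 13 total thymocyte clusters. Over all 23 clusters the lowest were RPL26L1 at −0.57 and RPS27L at −0.50. RPL26L1 was at −0.14 within the iNKT and −0.56 within the total thymocyte clusters, and RPS27L at −0.73 and −0.08, so both were under 0 in each library. RPL38 was at −0.19 over all clusters but above 0 in each library, at 0.87 in iNKT and 0.18 in total thymocytes. RPL7L1, RPL36AL, RPL4 and RPL17-C18orf32 were also under 0 over all clusters, and their sign differed between the libraries. RPL36AL was at 0.50 in iNKT and −0.36 in total thymocytes, while RPL7L1, RPL4 and RPL17-C18orf32 were under 0 in iNKT, from −0.31 to −0.12, and above 0 in total thymocytes, from 0.23 to 0.42. A member's part of all ribosomal protein UMIs varied between its highest and lowest cluster by a median of 1.52-fold, and by over 2-fold for 10 members. RPS2 varied most, from 0.782% of ribosomal protein UMIs in double-positive-like cluster 6 to 3.096% in cycling-like iNKT cluster 5, 3.96-fold.

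The members that parted from the rest did so in recurring sets of clusters, as the map of their composition shows. These sets were chosen after their values had been seen, so they carry no test. RPS2, RPL3 and RPS15 were low in both double-positive-like clusters, and RPS6 in double-positive-like cluster 6. This was not particular to the double-positive-like clusters. Cluster 12, led by VPREB1 and DNTT, had 2353 CPM of RPS2, 1141 CPM of RPL3 and 4217 CPM of RPS15. RPS15 was at 4047 CPM in post-selection-like cluster 1, and at 3969 and 2909 CPM in double-positive-like clusters 5 and 6. RPS2 was at 1169 CPM in double-positive-like cluster 6, 2276 CPM in double-positive-like cluster 5, 2327 CPM in post-selection-like cluster 1 and 3336 CPM in early and pre-TCR-like cluster 3. It was above all of these in gamma-delta T-like cluster 8 (4747 CPM), naive mature T-like cluster 2 (5048 CPM), cycling-like cluster 10 (4577 CPM), and cluster 9 (6540.0 CPM). The iNKT clusters with at least 50 cells held 5106 to 6953 CPM. RPS6 ran from 1088 CPM in double-positive-like cluster 6 to 3344 CPM in cycling-like cluster 10 and 4182 CPM in cluster 9. Its order differed from that of RPS2. Double-positive-like cluster 5 had 2149 CPM of RPS6, above post-selection-like cluster 1 (1643 CPM) and early and pre-TCR-like cluster 3 (1924 CPM). RPL3 had 883 and 1226 CPM in clusters 6 and 5, 1204 CPM in post-selection-like cluster 1 and 2797 CPM in cluster 9.

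A second set, RPL23, RPS27 and RPL36AL, was low in the dividing clusters of total thymocytes. RPL23 had 1931 CPM in cycling-like cluster 10, 3078 CPM in cluster 4 and 3158 CPM in cluster 9, against 6409 CPM in naive mature T-like cells. Double-positive-like clusters 5 and 6 were also low for RPL23, at 3355 and 3482 CPM. RPS27 had 5282, 5844 and 6825 CPM in clusters 10, 4 and 9 and 10685 CPM in naive mature T-like cells, and RPL36AL had 583, 611 and 770.2 CPM in the dividing clusters and 1266 CPM in double-positive-like cluster 5. In the iNKT library cycling-like cluster 5 was the lowest of the clusters with at least 50 cells for these 3 genes, at 4569, 7839 and 738 CPM. RPL22 had 2389 CPM in cluster 10 and 2629 CPM in cluster 4 but 3213 CPM in cluster 9, where the median of the total thymocyte clusters was 3121 CPM. It was also at 2432 CPM in double-positive-like cluster 6, and highest in naive mature T-like cells at 4730.4 CPM.

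A further set, RPS27L, RPL4 and RPL7L1, was high in the dividing clusters of total thymocytes and in cluster 7. RPS27L had 527 CPM in cluster 9, 476 CPM in cluster 7 (led by XCL1, CCL4 and NR4A3), 457 CPM in gamma-delta T-like cluster 8 and 421 CPM in cycling-like cluster 10. Double-positive-like clusters 5 and 6 had 307 and 300.2 CPM, and naive mature T-like cluster 2 and cytotoxic T or NK-like cluster 13 had 211 and 137 CPM. RPL4 was at 742 CPM in cluster 9 and 714 CPM in cluster 7, and at 298 CPM in double-positive-like cluster 6 and 282 CPM in iNKT cluster 0. RPL7L1 stood highest in cluster 7, at 279 CPM, and between 115 and 226 CPM in the other clusters with at least 50 cells. RPL26L1 lay between 93.5 and 168 CPM, a 1.80-fold range where the median of the members was 1.92-fold. Its part of the family was highest in double-positive-like cluster 6.

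**Figure D4:**
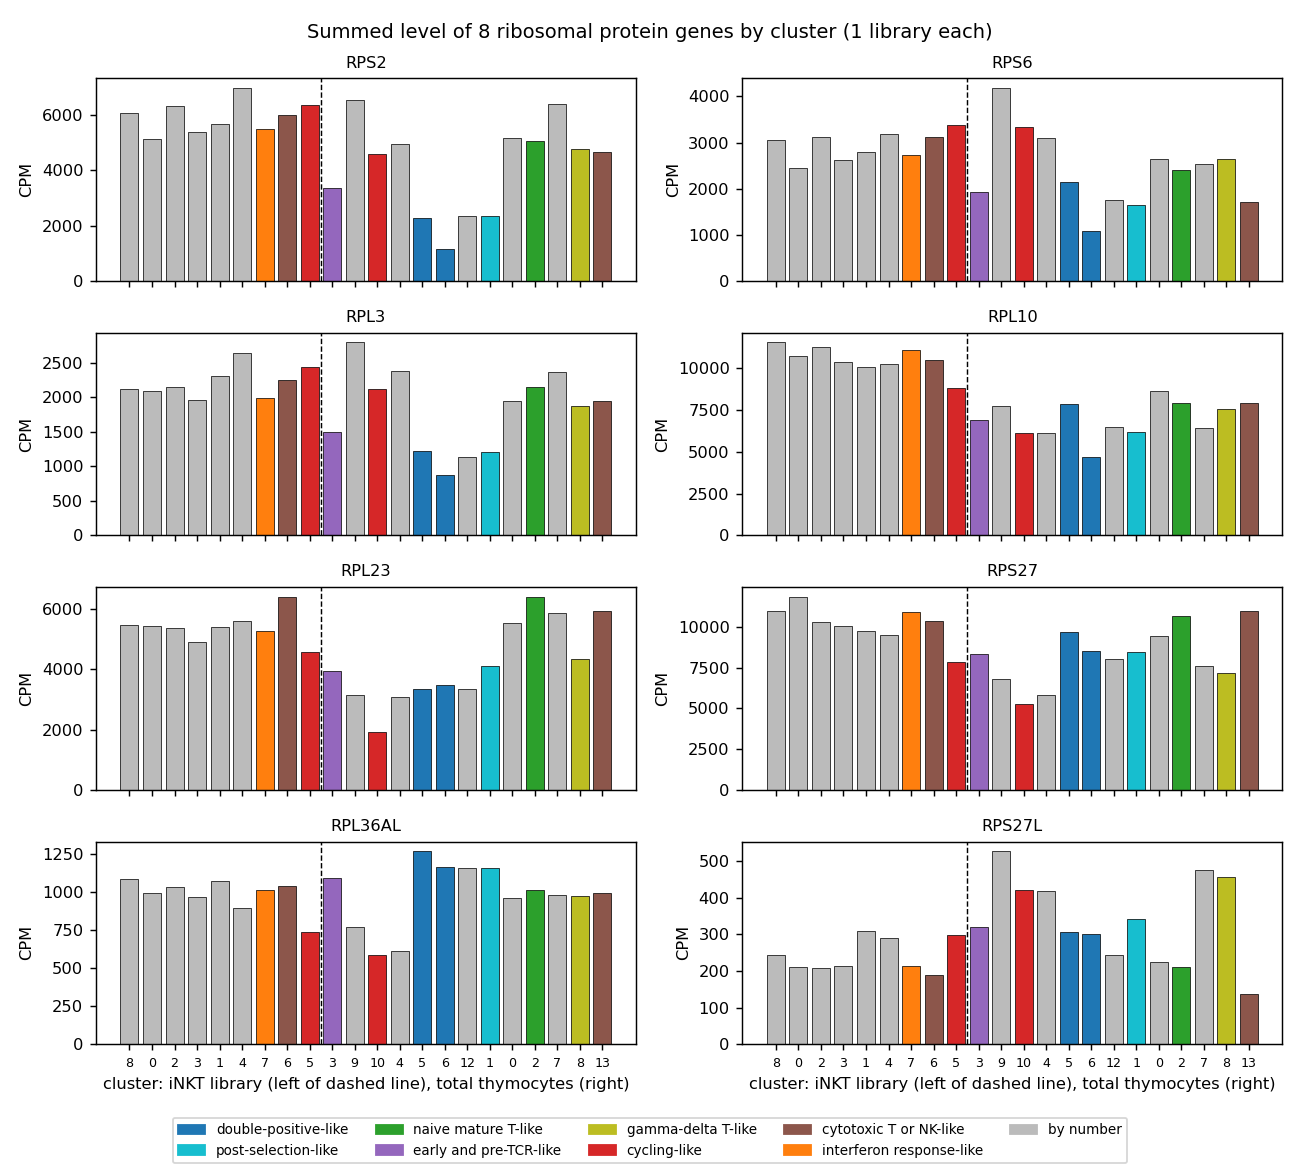
Summed level in CPM of 8 ribosomal protein genes in 9 iNKT clusters (left of the dashed line) and 13 total thymocyte clusters (right), coloured by cluster name. iNKT clusters 9 and 10 and total thymocyte cluster 11 are left out; RPS2 is lowest in double-positive-like cluster 6 at 1169 CPM and RPL23 in cycling-like cluster 10 at 1931 CPM.

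**Figure D5:**
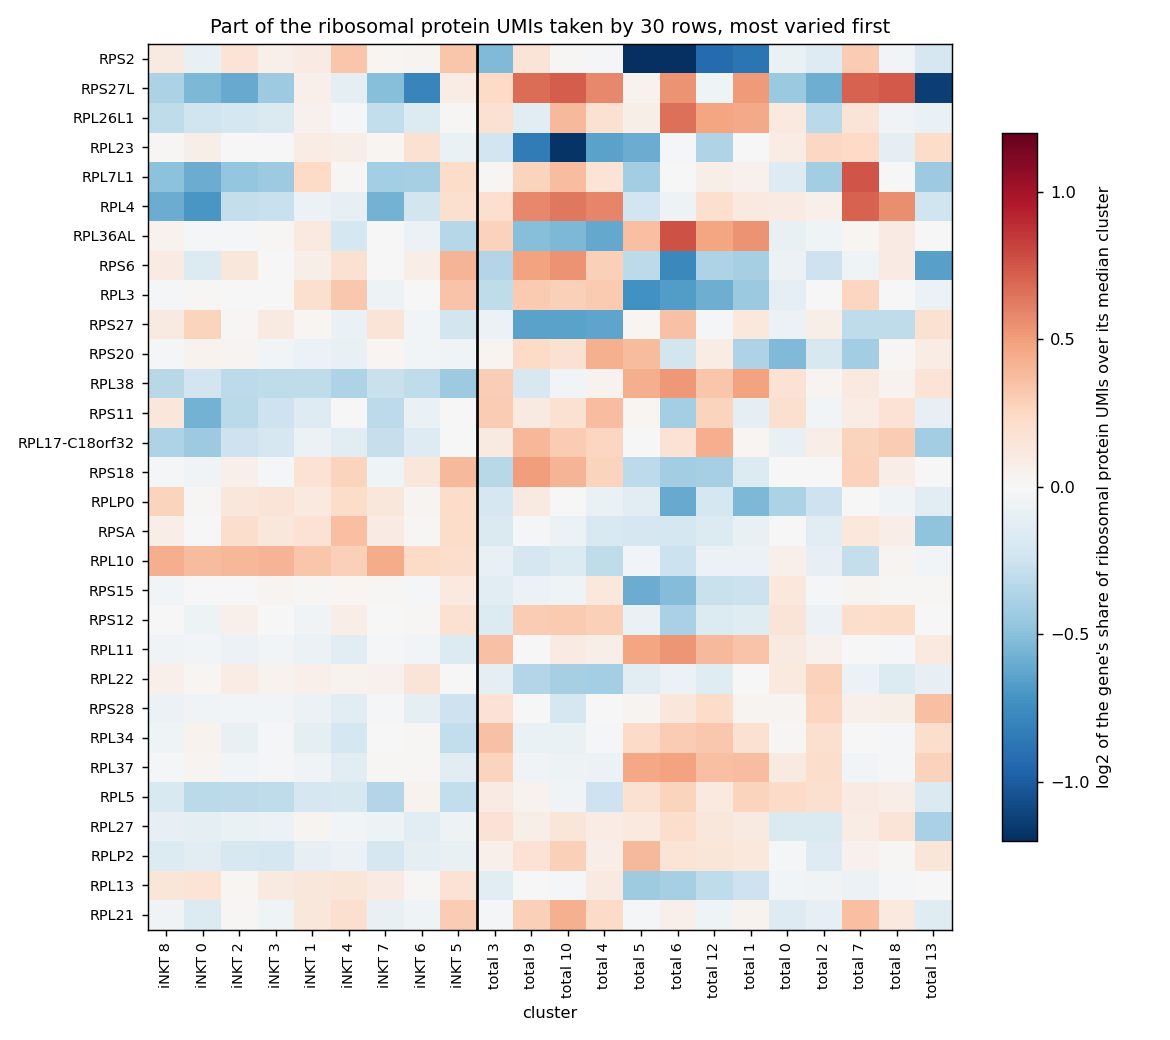
Part of the family's UMIs taken by 30 ribosomal protein rows, ordered by how much it varied between clusters, in the same clusters of iNKT (left of the line) and total thymocytes (right). Colour gives the log2 of the gene's part over its median cluster, capped at 1.2 in either direction; total thymocyte clusters 9, 10 and 4 share red in RPL4 and RPS27L and blue in RPL23 and RPS27.

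For members of low level, the share of cells with a UMI could run against the level in CPM. RPS27L was found in 63.3% of iNKT and 52.7% of total thymocytes, although its CPM was lower in iNKT thymocytes. With every cell thinned to 2000 UMIs, which kept 10965 iNKT and 4774 total thymocytes, the shares were 38.02% and 44.2%. Thinned shares for RPL7L1 were 24.5% and 26.7%, and for RPL26L1 24.4% and 24.5%.

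Genes that make and use ribosomes were read beside the family. Of the ribosome biogenesis list, 9 of 32 tested genes were 2-fold higher and 1 2-fold lower in naive mature T-like than in double-positive-like cells, with a median log2 ratio of 0.51, where 8.63% of all genes were 2-fold higher and 11.1% 2-fold lower. FBL, the methyltransferase of box C/D snoRNPs, had 282 CPM in naive mature T-like and 84.2 CPM in double-positive-like cells, a ratio of 3.35 (2.95 to 3.82), and MRTO4, an assembly factor of the stalk, had 3.78 (2.85 to 5.07). In cycling-like over double-positive-like cells 6 of 33 were 2-fold higher and 0 lower, against 12.6% and 18.2% of all genes. DKC1, the pseudouridine synthase, was among the 6 with 2.88 (2.35 to 3.55). The median of all genes was −0.19 and −0.23 in these comparisons. In iNKT over total thymocytes 0 of 39 were 2-fold higher and 3 2-fold lower (median −0.06), against 11.0% and 17.5% of all genes. In iNKT over naive mature T-like cells 0 of 39 passed 2-fold in either direction (median −0.23), against 7.30% of all genes higher and 7.45% lower.

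The 70 mitochondrial ribosomal protein genes, which serve a separate ribosome, stood apart from the cytosolic family in these sums. Their summed level was 4304 CPM in iNKT and 4802 CPM in total thymocytes, and 4045 CPM in naive mature T-like and 4194 CPM in double-positive-like cells. In cycling-like over double-positive-like cells 7 of 66 were 2-fold higher and 1 lower, both smaller shares than the 12.6% and 18.2% of all genes, with a median of 0.27. In iNKT cycling-like over non-cycling cells their median was 0.23 with 1 of 70 2-fold higher, against 6.03% of all genes. Of the 31 initiation and elongation genes found, 1 was past 2-fold in any of the 5 comparisons, the helicase gene EIF4A1 in cycling-like cells with 2.22 (2.06 to 2.399). In cycling-like over double-positive-like cells 12.6% of all genes were 2-fold higher. The initiation and elongation genes summed to 37166 CPM in iNKT and 30714 CPM in total thymocytes. Their median log2 ratio was −0.08, so the higher sum was not that of the typical gene, and the median of all genes was −0.24. MYC, the transcription factor that raises ribosome production, had 74.2 CPM in naive mature T-like and 4.92 CPM in double-positive-like cells, a ratio of 15.1 (9.44 to 25.5), and 46.9 CPM in cycling-like cells. RPS6KA1, which encodes a ribosomal S6 kinase of the RSK family, had 46.9 CPM in iNKT and 16.7 CPM in total thymocytes, with a ratio of 2.81 (2.54 to 3.102). Over the growth signalling list, 1 of 20 tested genes was 2-fold higher and 2 2-fold lower in iNKT over total thymocytes, where 11.0% and 17.5% of all genes were. In naive mature T-like over double-positive-like cells 3 of 16 were higher and 2 lower, against 8.63% and 11.1% of all genes.

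Values of the subunits lay close together. The median log2 ratio of the 33 large-subunit and of the 24 small-subunit members was 0.10 and 0.06 in iNKT over total thymocytes, 0.35 and 0.41 in naive mature T-like over double-positive-like cells, and −0.14 and −0.07 in cycling-like over non-cycling iNKT cells. In cycling-like over double-positive-like cells it was 0.06 and 0.19. Large-subunit members made up 52.7% of the ribosomal protein UMIs of cycling-like and 56.99% of those of double-positive-like cells.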

How the data were processed

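The authors deposited raw counts of UMIs per gene and barcode, unnormalised, made with Cell Ranger 3.1 per the submitters' processing notes (3.1.0 per the file headers), which also name Seurat 3.1. Chemistry was 3′ version 3.1, per the labels' protocols, and the genome build is not given in the sources used here. Kept barcodes had 500 or more genes, and 13 mitochondrial genes made up no more than 10% of their UMIs, which left 93.2% of 12097 iNKT and 88.1% of 9112 total thymocyte barcodes. Scrublet (expected rate 0.08) marked 1 and 0 cells, so no doublets were removed. Each library was clustered with scanpy 1.11.5 and igraph 0.11.9 without the ribosomal rows (scaled to 10000, 2000 variable genes, 30 components, 15 neighbours, Leiden resolution 1). CPM are summed UMIs of a group per 1000000 of all its UMIs. Intervals are exact at 95% (Clopper-Pearson for shares, conditional binomial for ratios; scipy 1.17.1, numpy 2.4.6) and cover counting error only. A ratio was called at 2-fold with at least 100 UMIs over both sides. TMM factors came from edgeR 4.0.16 in R 4.3.3, and the ratio script was tested on simulated counts. Figures used matplotlib 3.10.9.

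Members and lists were chosen with earlier results of these data known. Cluster names, the gate for dividing cells (3 UMIs per 1000) and its bins, and the alternatives on depth, shared barcodes, unnamed rows, double-positive-like clusters and dividing cells were set after cluster values had been seen. Named were, in each comparison, the members 1 or more from the members' median log2 ratio and the 3 highest and 3 lowest, the 5 most and least abundant of all, paralog pairs, RPLP0, RPLP2, RPSA, RPS6, RPL5 and RPL11, and the 3 members least correlated with the rest; others were chosen after their values were seen, and some members are not reported here.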

Additional observations from a re-analysis of the deposited data

How the results depend on the processing

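Values cover 1 library of each kind, and deeper libraries would narrow only counting error. No paired analysis was possible because each group is 1 library, and no replicate could be left out for the same reason. Over all alternatives, 63 ratios of shares moved by more than their counting interval, 3 turned their direction and 18 did not move. Of the counts of members past 2-fold or apart from their median, 25 moved by over 1.5 times and 218 did not. Of the values of single named genes, 87 moved, 117 did not and 0 turned. The 3 that turned were iNKT over mature without the highest doublet scores and with TMM factors, and cycling over double-positive against double-positive-like cluster 5 alone; the causes were not tested. TMM shifted the median log2 ratio of all genes to 0.07, 0.10, 0.07, −0.07 and −0.06 for iNKT over total, iNKT over mature, cycling over double-positive, mature over double-positive and cycling over non-cycling iNKT, where library totals gave −0.24, −0.15, −0.23, −0.19 and 0.01.

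The ratios of shares and counts of members that moved were as follows. With a minimum of 200 genes per cell, the ratio of shares was 1.095 for iNKT over total, 1.14 for cycling over double-positive and 0.835 for cycling over non-cycling iNKT, with 6 members 2-fold higher in cycling over double-positive and 0 members 2-fold lower in cycling over double-positive. With at most 5% mitochondrial UMIs, the ratio of shares was 1.09 for iNKT over total, 0.943 for iNKT over mature, 1.16 for cycling over double-positive, 1.48 for mature over double-positive and 0.807 for cycling over non-cycling iNKT, with 0 members 2-fold lower in cycling over double-positive. Without the highest doublet scores, the ratio of shares was 1.09 for iNKT over total, 1.01 for iNKT over mature, 1.07 for cycling over double-positive, 1.26 for mature over double-positive and 0.794 for cycling over non-cycling iNKT, with 0 members 2-fold lower in cycling over double-positive and 1 member 2-fold higher in mature over double-positive. At Leiden resolution 2, the ratio of shares was 0.956 for iNKT over mature, 1.05 for cycling over double-positive, 1.32 for mature over double-positive and 0.807 for cycling over non-cycling iNKT. With cells scaled without the ribosomal rows before clustering, the ratio of shares was 1.101 for cycling over double-positive and 0.834 for cycling over non-cycling iNKT. With cell groups from marker UMIs, the ratio of shares was 0.994 for iNKT over mature, 1.17 for cycling over double-positive, 1.27 for mature over double-positive and 0.881 for cycling over non-cycling iNKT, with 5 members 2-fold higher in cycling over double-positive, 0 members 2-fold lower in cycling over double-positive and 1 member 2-fold higher in mature over double-positive. With equal weight per cell, the ratio of shares was 1.17 for iNKT over total, 1.399 for mature over double-positive and 0.9199 for cycling over non-cycling iNKT, with 2 members 2-fold lower in cycling over double-positive and 2 members apart from their median in mature over double-positive. Without mitochondrial genes in the denominator, the ratio of shares was 1.08 for iNKT over total, 0.967 for iNKT over mature, 1.04 for cycling over double-positive, 1.29 for mature over double-positive and 0.919 for cycling over non-cycling iNKT. With the 6 rows named by the gene name table, the ratio of shares was 0.968 for iNKT over mature, 1.04 for cycling over double-positive, 1.29 for mature over double-positive and 0.911 for cycling over non-cycling iNKT. Without the paralogs with an L suffix, the ratio of shares was 1.31 for mature over double-positive, with 0 members 2-fold lower in cycling over double-positive. Without the most abundant member, the ratio of shares was 1.08 for iNKT over total, 1.08 for cycling over double-positive, 1.31 for mature over double-positive and 0.924 for cycling over non-cycling iNKT. With TMM factors, the ratio of shares was 1.35 for iNKT over total, 1.15 for iNKT over mature, 1.29 for cycling over double-positive, 1.42 for mature over double-positive and 0.871 for cycling over non-cycling iNKT, with 6 members 2-fold higher in cycling over double-positive, 0 members 2-fold lower in cycling over double-positive and 4 members 2-fold higher in mature over double-positive. With unnamed rows left out of the clustering, the ratio of shares was 0.952 for iNKT over mature, 1.13 for cycling over double-positive, 1.33 for mature over double-positive and 0.903 for cycling over non-cycling iNKT, with 0 members 2-fold lower in cycling over double-positive. Among cells of 2000 to 4000 UMIs, the ratio of shares was 1.02 for iNKT over total, 0.925 for iNKT over mature and 1.097 for mature over double-positive. That range of UMIs also changed the mix of clusters in each group. With total thymocyte clusters 4 and 9 counted as cycling and cluster 0 as mature, the ratio of shares was 0.981 for iNKT over mature, 1.19 for cycling over double-positive and 1.29 for mature over double-positive, with 5 members 2-fold higher in cycling over double-positive and 0 members 2-fold lower in cycling over double-positive. Against double-positive-like cluster 6 alone, the ratio of shares was 1.24 for cycling over double-positive and 1.53 for mature over double-positive, with 7 members 2-fold higher in cycling over double-positive, 0 members 2-fold lower in cycling over double-positive, 5 members apart from their median in cycling over double-positive, 7 members 2-fold higher in mature over double-positive and 2 members apart from their median in mature over double-positive. Against double-positive-like cluster 5 alone, the ratio of shares was 0.859 for cycling over double-positive and 1.06 for mature over double-positive, with 1 member 2-fold higher in cycling over double-positive, 1 member apart from their median in cycling over double-positive and 1 member 2-fold higher in mature over double-positive.

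For dividing cells rich over poor in G2 and M transcripts, the ratio of shares was 0.748 in iNKT and 0.798 in total thymocytes with a gate of 2 UMIs per 1000, 0.767 in iNKT and 0.749 in total thymocytes with a gate of 5, 0.757 in total thymocytes over 5000 UMIs, 0.836 in total thymocytes without cluster 9 and 0.767 in total thymocytes without cluster 4. With a minimum of 200 genes per cell, and with cells scaled without the ribosomal rows, no cluster met the name naive mature T-like, so the comparisons with mature cells gave no value. Among cells of 2000 to 4000 UMIs the comparisons of cycling-like cells gave none, since under 20 cells remained.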

Other observations

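Of 21301 rows, 14846 carry a symbol in the gene list. With names added from a separate table of pig gene names, 5768 rows remained without a name. These held 12.03% of UMIs in the iNKT and 11.5% in the total thymocyte library. Apart from them, the table calls 6 rows without a listed symbol ribosomal proteins, namely RPLP1, RPS29, RPL14, RPS24, RPS27A and RPS7. Together these 6 held 3.997% of UMIs in the iNKT and 3.64% in the total thymocyte library. RPLP1, an acidic stalk protein, had 10753 CPM in iNKT and 10105 CPM in total thymocytes. Their ratios of iNKT over total thymocytes ran from 1.02 for RPS24 to 1.14 for RPS29. RPS27A, a fusion with ubiquitin, had 8328 CPM in naive mature T-like, 5325 CPM in cycling-like and 6289.9 CPM in double-positive-like cells, and RPS29 had 10049, 6508 and 7319 CPM in the same order. RPLP1 was nearly level over these groups, at 9897, 10062 and 10089 CPM.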
